A study of Mus musculus with 3 samples.

Results

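The amyloid precursor family and the proteases that process it were described here as 9 genes: App, Aplp1, Aplp2, Bace1, Bace2, Adam10, Psen2, Ncstn and Aph1a. They were taken by name from the gene table of 1 RNA-seq sample and make up 9 of its 46073 genes. All 9 were found. The tissue was the medial prefrontal cortex (mPFC), a frontal association region of the cortex, of naïve C57BL/6 mice aged 3 months. The labels name no transgene, treatment or second condition, and the sex of the animals is not given. The series has 3 samples, for methylated DNA captured by antibody (MeDIP), for input DNA and for RNA. Only the RNA table was used, and the DNA samples were not analysed here. Values are FPKM, a fragment level scaled by transcript length and by library size, which allows genes of 1 sample to be set side by side. The design text states 3 replicates for RNA, but the table holds 1 distinct value per gene, so no level below has an error and no ratio between genes was tested against the spread between animals.

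App encodes the amyloid precursor protein, a membrane protein abundant in neurons, and Aplp1 and Aplp2 encode its relatives. Alpha-secretase, for which Adam10 is the main neuronal enzyme, and beta-secretase, encoded by Bace1, shed the outer part of APP at different sites. Gamma-secretase, a membrane complex of a presenilin, nicastrin (Ncstn), an APH-1 protein and PEN-2 (Psenen), then cuts the remaining stub within the membrane, and after beta-secretase this releases amyloid-beta. Aplp1 and Aplp2 are cut by the same classes of enzyme but hold no amyloid-beta sequence.

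All 3 precursor genes were among the most highly listed genes of the table, and the 6 secretase genes were lower. The 5 detected secretase genes stood between 0.699 and 2.46 times the median of detected protein-coding genes. Of the 9 genes, 8 were at 1 FPKM or more, the level used here to call a gene detected, which 31.5% of all genes and 58.6% of protein-coding genes reached. At 100 FPKM or more stood 3 of the 9, the precursor genes, against 1.57% of all genes and 2.82% of protein-coding genes. The median of the 9 was 19.6 FPKM, beside 9.86 FPKM over detected protein-coding genes and 0.0414 FPKM over all genes. The members were chosen by name for their pathway, and nothing is claimed for them as a set from these shares.

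**Figure D1:**
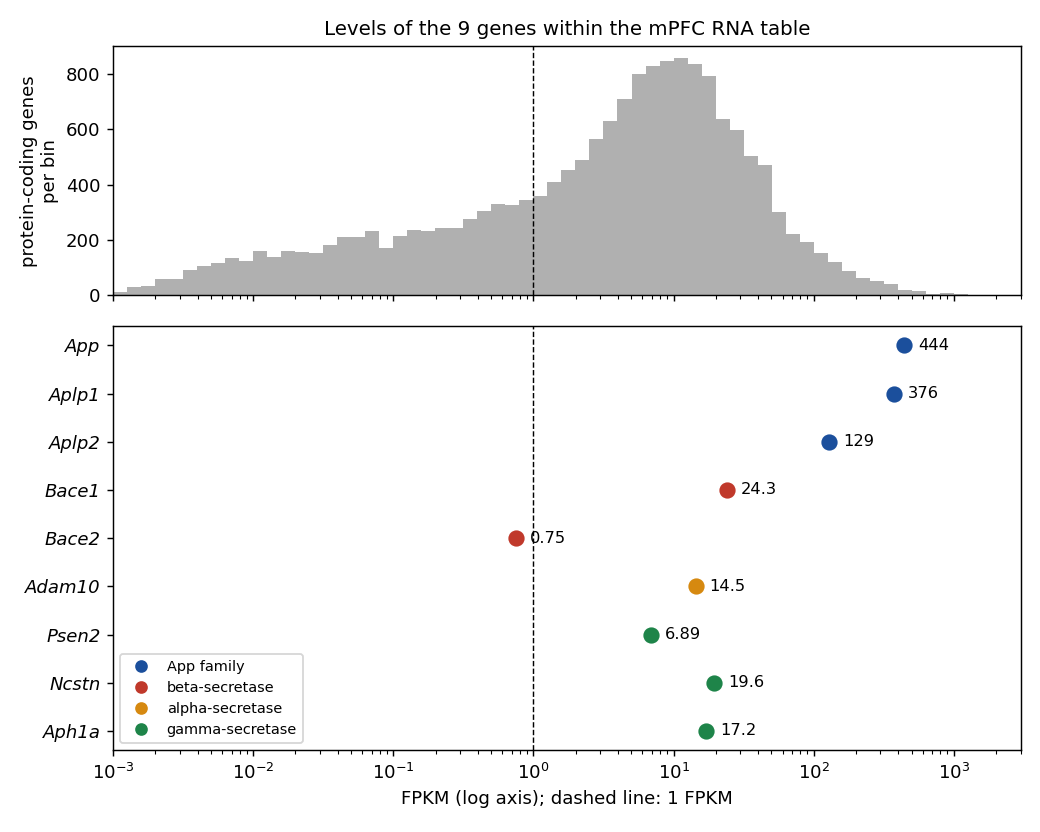
Top, histogram of protein-coding genes above 0 by FPKM on a log axis; bottom, the FPKM of each of the 9 genes on the same axis, coloured by role, with 1 point per gene and no error because the table holds 1 value per gene. App, Aplp1 and Aplp2 lie at the right edge of the distribution, from 129 to 444 FPKM, and Bace2 is left of the 1 FPKM line at 0.750.

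App (chromosome 16, 84952666 to 85175255, GRCm38) was at 444 FPKM, rank 55 of 20633 protein-coding genes. Aplp1 (chromosome 7, 30434980 to 30445582), which is expressed mainly in neurons, was at 376 FPKM, rank 66. Aplp2 (chromosome 9, 31149557 to 31211848), which is expressed in many tissues, was at 129 FPKM, rank 413. App and Aplp1 were thus within 1.18-fold of each other, while App was 3.43-fold and Aplp1 2.91-fold above Aplp2. Of the family sum of 950.1 FPKM, App made up 46.8%, Aplp1 39.6% and Aplp2 13.6%. The family held 0.121% of the summed FPKM of the table, or 0.241% without the mitochondrial genes, which took 50.04% of that sum.

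The 3 genes differ widely in size. App spans 223 kb and Aplp2 62.3 kb, against 10.6 kb for Aplp1. RefSeq lists 7 mRNA models for App, 5 for Aplp2 and 1 for Aplp1. The deposited level is per gene, so the App isoforms with and without the Kunitz protease inhibitor domain, the shorter of which predominates in neurons, were not told apart. Several overlapping RefSeq models (the non-coding Gm10791 within App, and the pseudogenes Gm46106 and Gm33535 within Aplp2) had no value under those names in the table.

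Of the beta-secretase pair, Bace1 was above the 1 FPKM floor and its relative Bace2 was below it. Bace1 (chromosome 9, 45838545 to 45862484), the aspartyl protease that makes the beta cut in neurons, was at 24.3 FPKM, higher than 85.7% of protein-coding genes. Bace2 (chromosome 16, 97356728 to 97442936), an aspartyl protease better known from pancreatic islets and pigment cells, was at 0.750 FPKM. Bace1 was 32.4-fold above Bace2, or 14.4-fold after 1 FPKM was added to both. Rescaled to a sum of 1000000 over genes other than mitochondrial ones, Bace2 stood at 1.91 and Bace1 at 61.7, so that on this scale Bace2 was above 1. Bace2 was the lowest of the 9 genes, higher than 39.4% of protein-coding genes. Bace1 shares 5716 bases with Rnf214, which was listed at 21.2 FPKM. Whether counting used strand is not given in the sources used here, so reads from that stretch cannot be assigned with certainty.

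Adam10 (chromosome 9, 70678944 to 70780229), a zinc metalloprotease that also sheds Notch and cadherins, was at 14.5 FPKM. It was below Bace1, at 0.597 of its level. Against the other proteases with reported alpha-secretase activity, Adam10 was 1.28-fold above Adam9 at 11.3 FPKM and 3.57-fold above Adam17, the tumour necrosis factor sheddase, at 4.06 FPKM. App stood 18.3-fold above Bace1 and 30.7-fold above Adam10 in RNA level. The sum of the family was 11.4 times the sum of the 6 secretase genes, 83.2 FPKM, which leaves out the other gamma-secretase subunit genes. These are ratios of RNA and carry no information on protein amount or enzyme activity.

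The 3 gamma-secretase genes among the 9 were all detected, with the presenilin lowest. Ncstn (chromosome 1, 172066013 to 172082789), the large glycoprotein subunit that receives substrates, was at 19.6 FPKM. Aph1a (chromosome 3, 95893921 to 95898592), a scaffold subunit, was at 17.2 FPKM, and Ncstn was 1.14-fold above it. Psen2 (chromosome 1, 180227004 to 180263467), a catalytic aspartyl protease subunit, was at 6.89 FPKM, so that Ncstn was 2.85-fold and Aph1a 2.49-fold higher. Psen2 was the only one of the 5 detected secretase genes below the 9.86 FPKM median of detected protein-coding genes. The highest of those 5, Bace1, was 3.52-fold above Psen2.

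The annotation of all 3 subunit genes overlaps a neighbour. Ncstn shares 261 bases at its start with Copa, a coat protein gene listed at 42.7 FPKM. Aph1a shares 825 bases with Car14, a carbonic anhydrase gene at 6.77 FPKM, and Aph1a itself spans only 4.67 kb. Psen2 shares 7063 bases with the non-coding Gm31728, at 0.694 FPKM. How far these overlaps entered the levels was not tested.

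The 4 other subunit genes listed were all detected, with a median of 9.89 FPKM. Psenen, the smallest subunit, was at 39.9 FPKM, 5.79-fold above Psen2. The Aph1a paralogs Aph1b and Aph1c were at 4.22 and 1.42 FPKM. Aph1a was 4.08-fold above Aph1b, 12.1-fold above Aph1c and 3.05-fold above their sum of 5.64 FPKM. Aph1b and Aph1c are close copies in the mouse, so the split of reads between them is uncertain and the comparison with their sum is the safer one.

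In order of level the 9 genes ran App, Aplp1, Aplp2, Bace1, Ncstn, Aph1a, Adam10, Psen2 and Bace2. Among these 9, the gap between the lowest precursor gene and the highest secretase gene, Aplp2 over Bace1, was 5.33-fold. The gamma-secretase subunit gene Psenen, not among the 9, was above Bace1 at 39.9 FPKM. App and Aplp1, at 1.18-fold, and Ncstn and Aph1a, at 1.14-fold, are neighbours whose order rests on small differences. With 1 value per gene it cannot be said which neighbours differ beyond the spread between animals. The tissue was measured in bulk, so a low level in many cells and a high level in few cells cannot be told apart, nor can fewer cells of a type and less RNA per cell.

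Because the series concerns DNA methylation, the CpG content of the members' promoters was read from RefSeq sequence of build GRCm38.p6. Windows of the 250 bases before a transcript start matched 7 of the 9 genes, with 8 windows in all, since Psen2 has 2. Bace1 and Bace2 had no window, so nothing is said of their promoters. Those of the family and of Aph1a, the member with the fewest CpGs among the genes with 1 window, are shown 5′ to 3′ on the gene's strand, with each CpG in capitals.
App (chr16:85173708-85173957, minus strand): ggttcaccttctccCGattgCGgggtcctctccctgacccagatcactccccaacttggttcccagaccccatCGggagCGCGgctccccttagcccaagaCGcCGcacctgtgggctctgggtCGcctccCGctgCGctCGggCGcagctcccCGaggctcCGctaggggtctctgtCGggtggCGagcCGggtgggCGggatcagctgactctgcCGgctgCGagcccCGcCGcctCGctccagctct
Aplp1 (chr7:30445583-30445832, minus strand): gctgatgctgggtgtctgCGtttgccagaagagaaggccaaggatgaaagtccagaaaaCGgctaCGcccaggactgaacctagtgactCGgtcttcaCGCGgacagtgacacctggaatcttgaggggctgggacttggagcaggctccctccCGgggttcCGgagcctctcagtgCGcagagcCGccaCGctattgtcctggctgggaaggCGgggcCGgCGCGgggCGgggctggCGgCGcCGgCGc
Aplp2 (chr9:31211849-31212098, minus strand): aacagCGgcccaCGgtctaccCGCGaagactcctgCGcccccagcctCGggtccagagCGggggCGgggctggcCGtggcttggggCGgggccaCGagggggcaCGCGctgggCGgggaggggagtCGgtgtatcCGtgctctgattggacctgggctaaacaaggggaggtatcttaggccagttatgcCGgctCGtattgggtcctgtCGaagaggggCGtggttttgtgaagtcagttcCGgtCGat
Aph1a (chr3:95893671-95893920, plus strand): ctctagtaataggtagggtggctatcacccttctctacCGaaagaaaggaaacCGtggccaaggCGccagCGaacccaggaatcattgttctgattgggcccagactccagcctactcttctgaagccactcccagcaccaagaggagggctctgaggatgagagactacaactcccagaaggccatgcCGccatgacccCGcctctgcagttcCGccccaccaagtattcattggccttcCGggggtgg

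The 3 family promoters were alike in CpG content, and Aph1a stood below them. The App window held 23 CpGs at 70.8% G and C, the Aplp2 window 22 CpGs at 66.4% and the Aplp1 window 20 CpGs at 66%. In Aplp1, 9 of the 20 CpGs lie in the last 50 bases before the start, against 5 of 23 in App and 4 of 22 in Aplp2. The App window lies inside the annotated span of the gene, which also holds transcript models that start further upstream. The median over 20208 windows of 16564 protein-coding genes was 10 CpGs at 56%. The Adam10 window held the most CpGs of the member windows, 29, above 91.0% of windows, and that of Ncstn held 21. The last bases of both windows lie within the annotated span of their gene, and those of Ncstn also within that of Copa. The Psen2 windows, which also lie inside the annotated span of their gene, held 15 and 7 CpGs. The Aph1a window held 8, above 43.1% of windows.

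Members with similar CpG counts had very different RNA levels. App, with 23 CpGs, and Ncstn, with 21, differed 22.7-fold in FPKM, and Aph1a, with 8 CpGs, was within 1.14-fold of Ncstn. Adam10, with the most CpGs, stood below Ncstn and Aph1a. Over 16564 protein-coding genes, taking the first listed window of each, the median level was 0.00586 FPKM with 0 to 4 CpGs and 1.84 FPKM with 5 to 9. It was 6.81 FPKM with 10 to 14 CpGs, 8.10 FPKM with 15 to 19, 8.94 FPKM with 20 to 24 and 9.87 FPKM with 25 or more. Spearman's rho over these genes was 0.628. This describes genes of 1 sample, which are not independent replicates. The share of genes at 100 FPKM or more was 0.585% with 0 to 4 CpGs and 2.70% with 5 to 9. It lay between 3.84% and 4.43% in the 4 classes with more CpGs, and was 3.84% with 20 to 24, the class that holds App, Aplp1 and Aplp2. No methylation value was set beside these sequences.

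**Figure D2:**
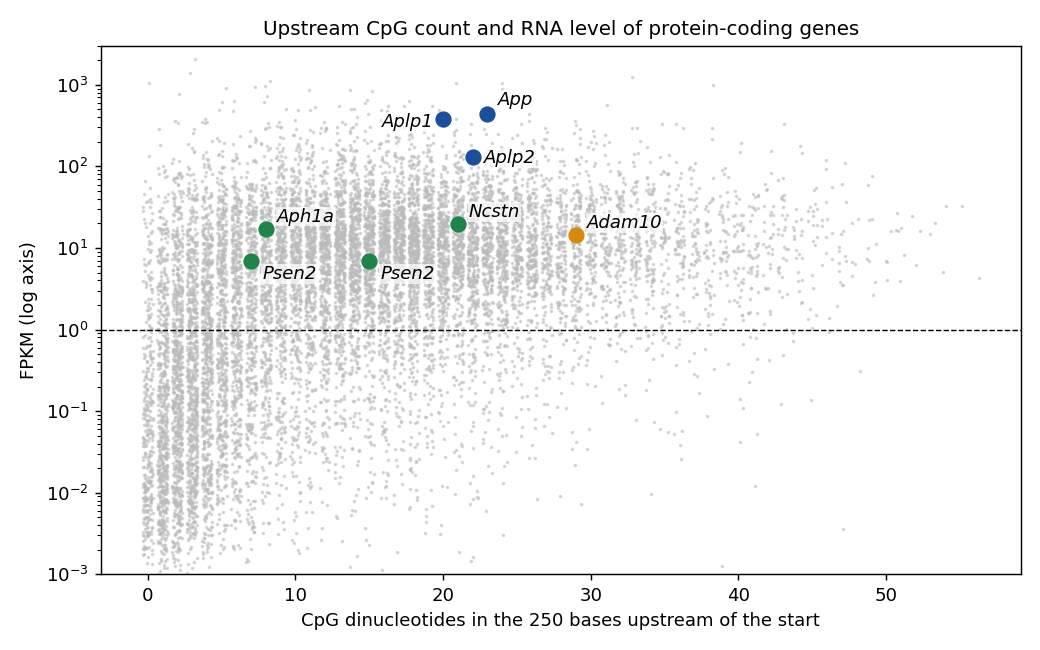
Number of CpG dinucleotides in the 250 bases upstream of the start (horizontal, with small random shifts for the grey points) against FPKM (log axis) for protein-coding genes above 0 (grey) and for the 8 windows of members (coloured by role). App, Aplp1 and Aplp2 lie between 20 and 23 CpGs at the top of the cloud, and Ncstn, with 21 CpGs, lies far below them at 19.6 FPKM.

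A search of both strands for promoter motifs found the GC box GGGCGG in 6 of the 8 member windows, against 43.7% of all windows. It was present in App, Aplp1, Aplp2, Adam10, Aph1a and 1 window of Psen2, with 3 matches each in Aplp2 and Adam10, and was not found in the Ncstn window. CCAAT was found in 3 member windows, those of Aplp2, Adam10 and Aph1a, against 34.9% of all windows. The E-box CACGTG was in the Adam10 window and in 1 Psen2 window, against 6.74% of all windows. TATAAA and the cAMP response element TGACGTCA were in 0 of the 8 and in 11.1% and 1.97% of all windows. All of these motifs other than CCAAT and TATAAA contain a CpG, so their counts rise with CpG content. Matches are letters in these windows and not evidence of binding.

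The other genes of the pathway were given as 7 lists of named genes. The count of detected genes in each list is to be read beside 58.6% of protein-coding genes and 31.5% of all genes. The lists were chosen by name, and nothing is claimed for them as sets from these counts. Among 12 other proteases that can cut APP, 9 were detected, with a median of 2.60 FPKM. Lgmn, the lysosomal asparaginyl endopeptidase also called delta-secretase, was highest at 41.9 FPKM and above Bace1. Mmp24, a membrane metalloprotease linked to the eta cut, was at 6.48 FPKM, and its relatives Mmp16, Mmp14 and Mmp15 were at 4.25, 3.00 and 2.20 FPKM. Adam19 was at 1.73 and the rhomboid protease Rhbdd1 at 1.64 FPKM. Adam8 was at 0.514 and the meprin subunit Mep1a at 0.00205 FPKM, and Mep1b was listed at 0.

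Of 15 genes for partners and inhibitors of the sheddases, 12 were detected, with a median of 5.00 FPKM. Timp2, a metalloprotease inhibitor, was at 66.05 FPKM, and the tetraspanins Tspan5 and Tspan17, which escort ADAM10 to the cell surface, were at 64.6 and 45.5 FPKM. All 3 were above Adam10 itself. The tetraspanin Tspan10 was lowest at 0.00600 FPKM, and Rhbdf2, a partner of ADAM17 in immune cells, was at 0.234 FPKM.

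Adaptors and binding partners of APP were detected in 24 of 24 measured cases, with a median of 28.3 FPKM. A further gene of that list, Apbb3, had no row under that name. The prion protein gene Prnp led at 337 FPKM, followed by Itm2c and Clstn1, membrane proteins found with APP, at 298 and 292 FPKM. Itm2b was at 259 FPKM, close to Itm2c and 13.2-fold above Itm2a at 19.6 FPKM. The adaptor genes were unequal. Apbb1 (Fe65), which binds the tail of APP, was at 210.3 FPKM, 26.0-fold above Apbb2 at 8.10 FPKM, and Apba2 was 2.32-fold above Apba1, at 52.1 against 22.4 FPKM. Shc1 at 3.22 and Gsap at 1.61 FPKM were lowest.

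Genes that sort or internalise APP and BACE1 were all detected, 23 of 23, with a median of 22.6 FPKM. The reticulon genes Rtn1, Rtn3 and Rtn4, whose proteins bind BACE1, were highest at 609, 314 and 276 FPKM. Each was above Bace1 and Rtn1 was above App. The sorting receptor gene Sort1 was at 68.4 FPKM, 1.68-fold above Sorl1 at 40.7 FPKM. Sorcs1 at 4.85 and Cd2ap at 3.07 FPKM were lowest.

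Among 22 genes for degradation and clearance of amyloid-beta, 17 were detected, with a median of 7.02 FPKM. Apoe, a lipoprotein gene of astrocytes, was listed at 1123 FPKM, 2.77-fold above clusterin (Clu) at 406 FPKM. The protease inhibitor gene Cst3 was at 963 FPKM. Ttr was at 566 FPKM and is also a marker of choroid plexus, whose other 4 markers ranged from 1.66 to 12.5 FPKM. The part of choroid plexus tissue in the level of Ttr was not tested. The insulin-degrading enzyme gene Ide was at 18.2 FPKM, 16.5-fold above Mme, which encodes neprilysin, at 1.10 FPKM. The neprilysin relative Mmel1 was at 0.237 and Plg at 0.0187 FPKM.

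Of 26 genes for other substrates of the secretases, 23 were detected, with a median of 11.02 FPKM. The chemokine gene Cx3cl1 led at 158 FPKM, with Sez6l2 at 128 FPKM. Ngfr and Cd44 were lowest at 0.529 and 0.522 FPKM. The Notch genes, named here after their values were seen, were low: Notch1 was at 3.08 FPKM, and Notch2, Notch3 and Notch4 lay between 1.02 and 1.91 FPKM. Cx3cl1 and Sez6l2 were each below App and Aplp1. Against Aplp2, at 129 FPKM, Cx3cl1 was higher and Sez6l2 was at a close level.

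**Figure D3:**
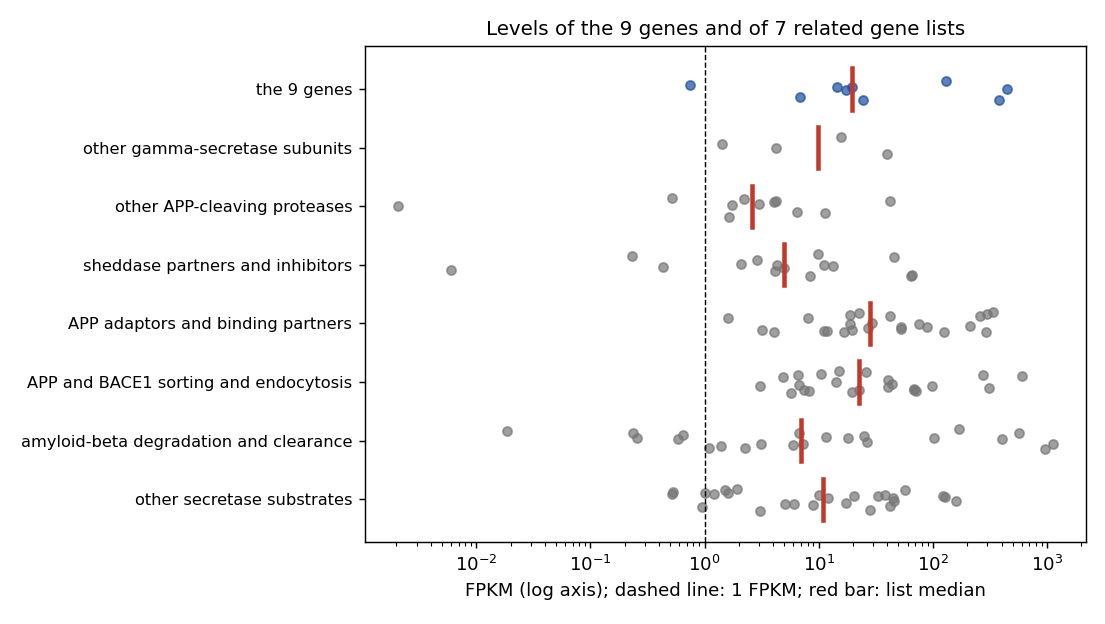
FPKM (log axis) of the 9 genes (blue) and of 7 lists of related genes (grey), with 1 point per gene, random vertical shifts and a red bar at each list's median; genes listed at 0 are not drawn. The medians run from 2.60 FPKM for the other APP-cleaving proteases to 28.3 FPKM for the adaptors, with the 9 genes at 19.6 FPKM.

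Markers of cortical neurons and of the main glial classes were present. The same floor of 1 FPKM was reached by 58.6% of protein-coding genes and 31.5% of all genes. Excitatory and inhibitory neuron markers were detected in 6 of 6 cases each, with medians of 199 and 30.7 FPKM. Astrocyte, oligodendrocyte, microglia and endothelial or mural markers were also detected in 6 of 6 each, at medians of 48.6, 150.5, 13.8 and 8.34 FPKM, and those of oligodendrocyte precursors in 4 of 4, at 4.14 FPKM. Of the lists for other tissue, choroid plexus (5 of 5), blood (3 of 4) and striatum (4 of 6) had medians of 8.57, 8.04 and 1.796 FPKM. The striatal markers ran from Isl1 at 0.0772 and Six3 at 0.272 FPKM to Drd1 at 2.77 and Ppp1r1b, which cortical neurons also express, at 59.6 FPKM. The share of each cell type in the level of App or of a secretase gene was not tested.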

How the data were processed

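DNase-treated RNA was sequenced from Illumina TruSeq libraries, per the labels' protocols. CASAVA 1.8.2, TopHat and Cufflinks with the mouse build mm10 are named for this sample, per the submitters' processing notes. The values the authors deposited are FPKM for 46073 Ensembl genes. The sources used here do not give the annotation release, strand handling, depth or how replicates were combined. Both value columns hold the same number in 46073 rows and were counted as 1 sample. Fragment counts were not recovered, so no counting interval is given.

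Identifiers were matched to symbols for 45139 rows. Gene class, span and promoter sequence came from RefSeq (GRCm38.p6, equal to mm10), and 20633 rows were protein coding. Errors in assumed length or isoform mix enter every ratio between genes. The 9 genes, the 7 pathway lists, the 10 marker lists and the 26 pairs, of which 25 were in the table and 18 at least 2-fold apart, were chosen with earlier results of these data known. Named genes were all 9 members, the genes of the pairs and of the lists of gamma-secretase subunits and of other proteases, the 3 highest and 2 lowest of each other pathway list, and the 2 protein-coding genes on each side of App. Some genes that this rule takes are not reported here, but counts and medians include them. Alternatives covered the floor, pseudocount, scaling, background and promoter window. The functions were tested on simulated data. Software was Python 3.11.15 with pandas 2.3.3, numpy 2.4.6 and, for plots, matplotlib 3.10.9.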

Additional observations from a re-analysis of the deposited data

How the results depend on the processing

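No paired analysis was possible because the table holds 1 value per gene, and leaving out each replicate was not run for the same reason. At a floor of 0.1 or 5 FPKM, 9 or 8 of the 9 genes were detected, against 8 at 1 FPKM. Of the pathway lists, 122 or 85 genes were detected, against 112. At 1 FPKM, 31.5% of all genes and 58.6% of protein-coding genes were detected. These shares were not counted at the other floors, so nothing is read from the counts there. A pseudocount cannot change which of a pair of genes is higher, only the size of the ratio. With 1 FPKM added, App over Aplp2 was 3.41, Aplp1 over Aplp2 2.89, Bace1 over Bace2 14.4, Adam10 over Bace1 0.613, Ncstn over Aph1a 1.13, Ncstn over Psen2 2.61 and Aph1a over Psen2 2.31. With 0.1 FPKM added, Bace1 over Bace2 was 28.7, Adam10 over Bace1 0.598, Ncstn over Psen2 2.82 and Aph1a over Psen2 2.47. The App share of the family sum was 46.7% with 1 FPKM added to each gene, against 46.8%. The percentile of Psen2 was 82.0 over all genes, 64.3 over protein-coding genes and 43.0 among detected genes alone. That of Adam10 was 88.7 over all genes, 77.5 over protein-coding genes and 64.1 among detected genes alone. The values among detected genes are lower because genes below 1 FPKM left the comparison. Rescaled to a sum of 1000000, App was at 564 over all genes and 1128 without mitochondrial genes, and Bace2 at 0.952 and 1.91; the ratios between genes do not depend on this scaling. A window of 300 bases, chosen after the data were seen, held the same 250 upstream bases and 50 bases after the start. With it the CpG percentile rose for App from 82.2 to 84.1 and for Aplp1 from 75.6 to 76.8. It also rose for Aplp2 from 80.0 to 82.4 and for the CpG-richer Psen2 window from 62.3 to 70.1. The percentile fell for Adam10 from 91.0 to 87.1 and for Ncstn from 77.9 to 74.6. It also fell for Aph1a from 43.1 to 41.9 and for the other Psen2 window from 40.1 to 37.3. Depth is unknown, so the precision of low values such as Bace2 cannot be stated.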

Other observations

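App lay between genes of several kinds in the order of protein-coding levels. Just above it were Olfm1, a secreted glycoprotein gene of neurons, at 463 FPKM and the ribosomal protein gene Rplp1 at 454 FPKM. Just below it were Atp6v0c, a proton pump subunit gene, at 443 FPKM and Cox6a1, a respiratory chain subunit gene, at 439 FPKM. This is a likeness of level in 1 sample, since a table with 1 value per gene holds no pattern across samples.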
